A study of Mus musculus with 10 samples.

Results

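The diacylglycerol kinases are a family of lipid kinases, and the genes examined here are Dgka, Dgkb, Dgkd, Dgke, Dgkg, Dgkh, Dgki and Dgkz. These 8 genes were taken by symbol from 43629 gene identifiers in the count tables. Dgkg was selected on its log2 fold change between the genotypes compared here, which is among the largest falls, and the other 7 because they belong to its family. The genotype differences of the 8 genes are therefore given as a description. No p is printed for them, and no support is drawn from which of them pass a threshold.

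RNA-seq was done on dorsal telencephalon, which forms the cerebral cortex, from C57BL/6 mouse embryos at E14.5. The 5 control samples carried 1 floxed Dot1l allele (Dot1l-cKO f/+) and no Cre. The 5 Dot1l-cKO samples carried 2 floxed Dot1l alleles (Dot1l-cKO f/f) and 1 allele with Cre. Dot1l encodes a histone H3 lysine methyltransferase. Every Dot1l-cKO sample carries the Cre allele and no control does, so loss of Dot1l and presence of that allele cannot be told apart. The comparison asks which transcripts differ when Dot1l is deleted, and here what it shows for this kinase family.

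Diacylglycerol kinases phosphorylate diacylglycerol to phosphatidic acid. Diacylglycerol is released at membranes by phospholipase C and recruits protein kinase C, protein kinase D, RasGRP and Munc13 proteins, so the kinases both end one lipid signal and make another. The family is ordered by domains: type I (Dgka, Dgkb, Dgkg) binds calcium through EF hands, type II (Dgkd, Dgkh) has a pleckstrin homology domain, type III (Dgke) has a preference for arachidonate-containing diacylglycerol, and type IV (Dgki, Dgkz) has ankyrin repeats. Several members are abundant in brain, where diacylglycerol signalling is known for its part in synaptic transmission.

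Total counts were between 54202349 and 66556034 per sample. Replicates 2 and 3 of both groups, which share the number 57 at the start of their column names, had 0.0471% to 0.492% of counts in the mitochondrial rRNA genes, against 5.79% to 10.9% in the other 6 samples. What this header number stands for is not given in the sources used here, and differences are also given within these 4 samples and within the other 6. Dot1l itself was at 31.4 to 41.5 CPM in the controls and at 20.1 to 51.7 CPM in the Dot1l-cKO samples. Which exons are floxed is not given in the sources used here and the counts are per gene, so these values do not check the genotype. The tissue label was checked against cortical markers: Tbr1 and Eomes, genes of projection neurons and their intermediate progenitors, had means of 195 and 269.7 CPM in the controls.

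Promoter stretches of Dgkg and Dgkb are shown because these are the kinases with the largest fall and the largest rise in the family. Dgkg (ENSMUSG00000022861) spans chromosome 16 from 22468461 to 22657221, minus strand, in GRCm38, and Dgkb (ENSMUSG00000036095) spans chromosome 12 from 37817726 to 38634239, plus strand. The 250 bases before the RefSeq start of each gene are written 5′ to 3′ on the strand of the gene, at chr16:22657232-22657481 for Dgkg and chr12:37879924-37880173 for Dgkb in GRCm38.p6, with CpG dinucleotides in capitals. The Dgkb stretch lies inside the gene span just given, since RefSeq starts the gene downstream of the first base that GENCODE annotates, so it precedes an internal start.
Dgkg: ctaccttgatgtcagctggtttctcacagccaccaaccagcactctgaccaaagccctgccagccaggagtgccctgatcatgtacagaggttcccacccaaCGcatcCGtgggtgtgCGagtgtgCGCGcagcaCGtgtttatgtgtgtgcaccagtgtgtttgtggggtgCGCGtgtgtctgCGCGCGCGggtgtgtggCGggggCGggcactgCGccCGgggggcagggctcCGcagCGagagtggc
Dgkb: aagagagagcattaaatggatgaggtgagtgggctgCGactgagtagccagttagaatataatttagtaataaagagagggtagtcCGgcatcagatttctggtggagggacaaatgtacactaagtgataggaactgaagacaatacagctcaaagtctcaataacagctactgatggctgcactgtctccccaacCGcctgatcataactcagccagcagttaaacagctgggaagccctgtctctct
The Dgkg stretch held 18 CpG dinucleotides and was 64.8% G or C. The Dgkb stretch held 3 and was 45.6% G or C. The medians over 32851 RefSeq promoters of the same length were 6 CpG and 52.4%, so Dgkg was above both and Dgkb below both. All 8 kinases had an entry, with 14 promoters in all and 3 to 33 CpG dinucleotides each. The sequence TAATTA, a core bound by many homeodomain proteins and its own reverse complement, was in 1 of the 14, a promoter of Dgka, and in 4.84% of all promoters.

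The calcium-regulated type I kinases held the largest differences between the genotypes. Dgkg was lower in every Dot1l-cKO sample than in any control, Dgkb was higher in every Dot1l-cKO sample, and Dgka had a higher mean with overlapping groups. Dgkg, known from cerebellar and hippocampal neurons, was at 4.36, 2.58, 2.89, 5.64 and 6.57 CPM (counts scaled to a library of 1e+06) in control replicates 1 to 5. The Dot1l-cKO samples, in the same order, had 0.811, 0.746, 0.823, 1.37 and 0.403 CPM. The groups did not overlap, and the lowest control was 1.88 times the highest Dot1l-cKO sample. These levels rest on 147 to 407 counts per control and 25 to 91 per Dot1l-cKO sample, so the low group is the less precise. Dgkg averaged 4.41 ± 1.72 CPM over the controls against 0.831 ± 0.348 CPM over the Dot1l-cKO samples (SD, n = 5 per group), which is 5.28-fold lower, and its log2 fold change was -2.40 ± 0.35 (SE). Against the control of the same replicate number, each Dot1l-cKO sample held 6.13% to 28.9% of the Dgkg CPM. By header number it was -1.78 in the samples with 57 and -2.68 in the remaining 6. The 2 lowest controls, replicates 2 and 3, were those with header number 57.

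Dgkb, a kinase known for its expression in striatal and cortical neurons, moved the other way. It was at 14.4, 12.4, 13.0, 11.4 and 10.9 CPM in control replicates 1 to 5. In the Dot1l-cKO samples it was at 18.6, 22.1, 20.4, 15.99 and 17.6 CPM. The groups did not overlap, although the nearest samples, Dot1l-cKO replicate 4 and control replicate 1, were only 1.11 times apart. The means were 12.4 ± 1.35 and 19.0 ± 2.40 CPM, a log2 fold change of 0.61 ± 0.11 (SE), or 1.53-fold higher. It was higher in all 5 same-numbered pairs, with a log2 fold change of 0.76 among the samples with header number 57 and 0.50 among the remaining 6.

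Dgka, the kinase best known from T lymphocytes, was at 2.55, 2.58, 2.46, 2.44 and 2.92 CPM in the controls. In the Dot1l-cKO samples it was at 4.25, 2.76, 2.85, 4.21 and 4.87 CPM. Replicates 1, 4 and 5 of Dot1l-cKO lay above all controls, and replicates 2 and 3, those with header number 57, lay between the controls. The log2 fold change was 0.55 ± 0.17 (SE) over all samples, 0.18 in the samples with header number 57 and 0.75 in the remaining 6.

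**Figure D1:**
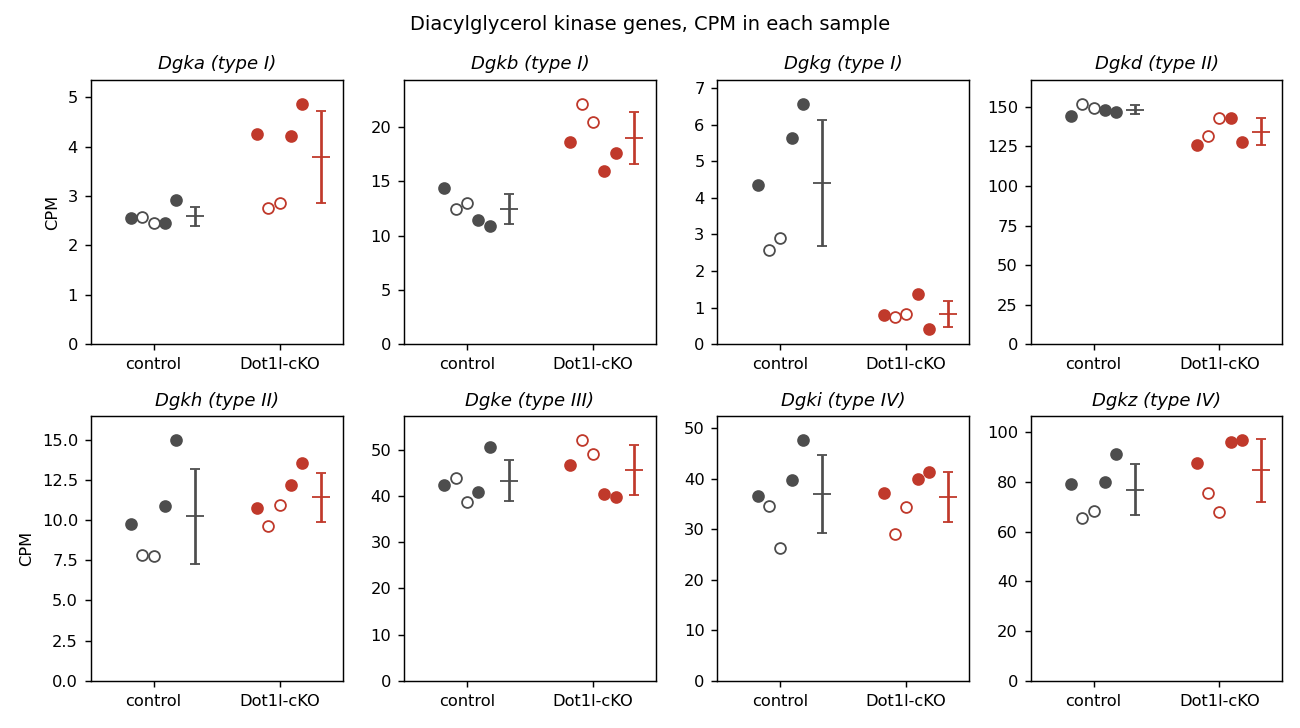
CPM of each diacylglycerol kinase in the 5 control (grey) and 5 Dot1l-cKO (red) samples, in replicate order from left to right, on linear axes that start at 0. Open circles are the samples with header number 57, and bars give mean and SD (n = 5). Dgkg, Dgkb and Dgkd are the panels in which the groups do not overlap.

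Outside type I the differences were small. Dgkd, a type II kinase, was the most abundant member by CPM, at 144, 152, 149, 148 and 147 CPM in the controls. It was at 126, 132, 143, 143 and 128 CPM in the Dot1l-cKO samples. All Dot1l-cKO samples lay below all controls, but the nearest values were 1.01 times apart, and the log2 fold change was -0.14 ± 0.06 (SE). Dgkh, the other type II kinase, was at 7.75 to 14.9 CPM in the controls and 9.63 to 13.6 CPM in Dot1l-cKO, with a log2 fold change of 0.16 ± 0.18 (95% interval -0.20 to 0.51). Dgke, of type III, was at 38.7 to 50.5 CPM and 39.8 to 52.0 CPM, with 0.07 ± 0.10 (-0.12 to 0.26). Its log2 fold change was 0.31 with header number 57 and -0.08 in the remaining samples. Of type IV, Dgki was at 26.3 to 47.6 CPM and 29.05 to 41.3 CPM, with -0.02 ± 0.15 (-0.31 to 0.26). Dgkz, a kinase of neurons and T lymphocytes, was at 65.6 to 91.5 CPM and 68.0 to 96.7 CPM, with 0.14 ± 0.12 (-0.10 to 0.37). For these last 4 genes the groups overlapped and the intervals included 0.

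All 8 kinases passed the filter on low counts. At an adjusted p under 0.05 in edgeR's quasi-likelihood fit over 17039 genes, 2 of the 8 were called, Dgkb higher and Dgkg lower. Over all genes tested, 7.11% were called, 5.67% higher and 1.44% lower. The groups did not overlap in CPM for 3 of the 8 kinases and for 8.34% of all genes tested. Since the family was chosen with this contrast known, nothing is read from these counts. The log2 fold change was positive for 5 kinases and negative for 3, with a median of 0.11, beside 48.8% positive and a median of -0.01 over all genes tested.

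**Figure D2:**
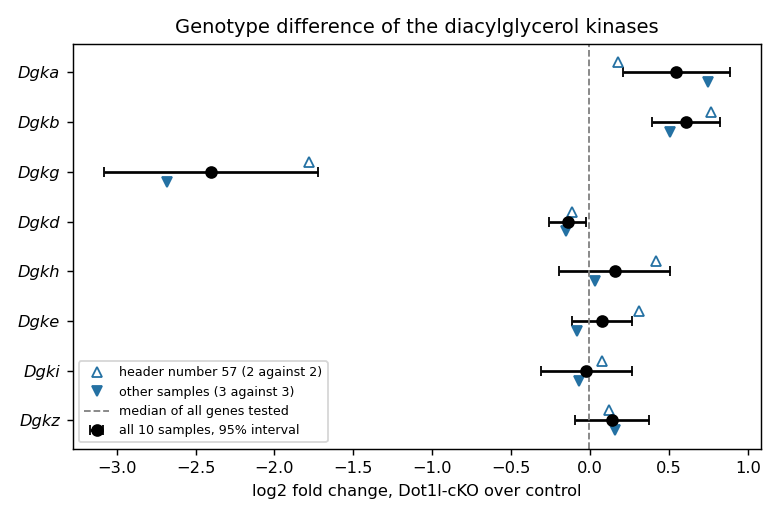
Log2 fold change of the 8 kinases, Dot1l-cKO over control, with 95% intervals from the edgeR fit on all samples (black), the values for header number 57 and for the remaining samples (blue triangles), and the median of all genes tested (dashed). Dgkg stands at -2.40, and the other 7 kinases lie between -0.14 and 0.61.

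Per exon length, Dgkg had the lowest mean of the 8 kinases in both groups. In the controls the mean TPM (counts per exon length, scaled to a common total) was 51.6 ± 5.56 for Dgkd, 29.1 ± 3.28 for Dgkz, 14.1 ± 2.83 for Dgki and 12.3 ± 1.72 for Dgke (SD, n = 5). It was 2.60 ± 0.32 for Dgkb, 1.43 ± 0.39 for Dgkh, 1.30 ± 0.16 for Dgka and 1.12 ± 0.41 for Dgkg. Dgki and Dgke overlapped between samples, as did Dgkh, Dgka and Dgkg, while the other neighbours in this order did not. In the Dot1l-cKO samples the order of the upper 5 was the same. Dgka at 1.88 ± 0.39 TPM then stood above Dgkh at 1.61 ± 0.23 TPM, with overlap, and Dgkg at 0.213 ± 0.081 TPM stood below both without overlap. With the length of the longest transcript in place of all exons, the controls had Dgkg at 2.23 TPM, above Dgka at 1.83 and Dgkh at 1.34, so the order of the lowest 3 depends on the length used.

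The summed level of the 8 kinases hardly differed, at 113.6 ± 10.3 TPM in the controls and 114.1 ± 8.49 TPM in Dot1l-cKO. Dgkd and Dgkz supplied 71.2% of it in the controls and 69.5% in Dot1l-cKO. Within type I the make-up shifted. Dgkg supplied 14.6% to 31.1% of the type I sum in the controls (mean 22.2%) and 1.67% to 6.08% in Dot1l-cKO (mean 3.55%), while the sum itself was 5.02 ± 0.28 TPM in the controls and 6.12 ± 0.57 TPM in Dot1l-cKO.

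**Figure D3:**
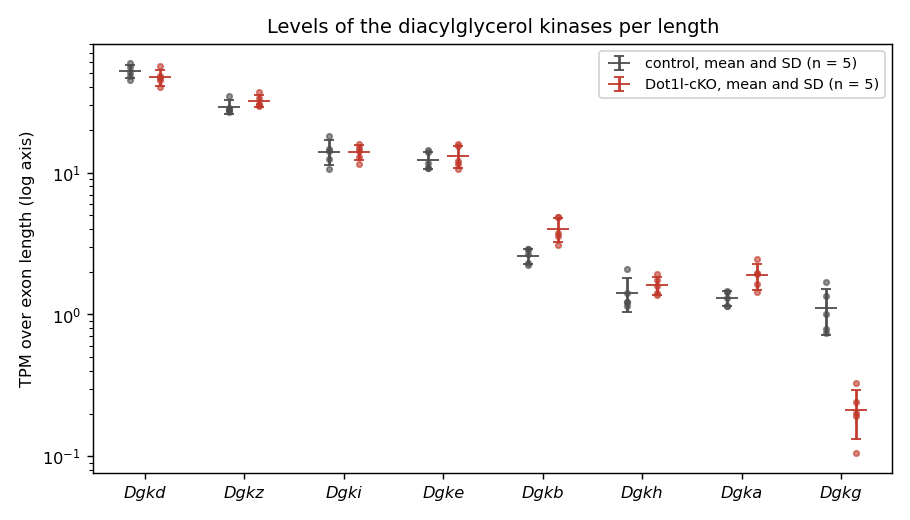
TPM of the 8 kinases over exon length on a log axis, ordered by the control mean, with samples as points and mean and SD as bars (n = 5 per group). Dgkd is highest in both groups, at 51.6 and 47.2 TPM, and Dgkg lowest, at 1.12 and 0.213 TPM.

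In bulk tissue, fewer cells of a type and less RNA per cell cannot be told apart, so markers of the cell types a dorsal dissection can hold were read from the same fit. The markers of interneurons and ventral telencephalon, the GABAergic lineage that migrates into the cortex, moved with Dgkg. Their summed level was 199 to 538 CPM in the controls and 75.6 to 176 CPM in Dot1l-cKO, without overlap. Of 17 tested, 8 fell, none rose, and the median log2 fold change was -1.99. The neuregulin receptor gene Erbb4 fell by 1.99 on the log2 scale (edgeR adjusted p 0.0042), while Dlx1, with -2.07, did not pass (adjusted p 0.115). The lowest sums among the controls, 286 and 199 CPM, were again those of replicates 2 and 3. Per 100 CPM of this marker sum, Dgkg stood at 0.901 to 1.45 CPM in the controls and at 0.462 to 0.936 CPM in Dot1l-cKO, and the groups overlapped only in control replicate 2 and Dot1l-cKO replicate 2. Nkx2-1 and Lhx8, markers of the ventral source regions, had means under 1 CPM in both groups. They were uneven between samples, at 3.61 and 2.51 CPM in control replicate 2. In every other sample they were at 0.339 and 0.717 CPM or less. The part of these markers in the Dgkg difference was not tested.

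Sums of 3 other marker lists were higher in every Dot1l-cKO sample than in any control. All 7 microglial markers rose, with sums of 32.9 to 55.6 CPM in the controls and 66.3 to 100.3 CPM in Dot1l-cKO, and log2 fold changes of 0.88 for Csf1r, 0.93 for Cx3cr1 and 0.93 for C1qb (adjusted p 0.041, 0.0016 and 0.018). Csf1r did not pass when any 1 sample other than control replicate 3 or Dot1l-cKO replicate 2 was left out (highest adjusted p 0.105), nor C1qb without control replicate 1 (0.0535). With the replicate block 6 of the 7 rose, as Aif1 did not pass (adjusted p 0.0382, and 0.0730 with the block). Of 7 Cajal-Retzius markers 4 rose and none fell, with sums of 424 to 646 and 663 to 1223 CPM. Among them Nhlh2 rose by 0.72 (adjusted p 0.012), Reln had 0.68 (adjusted p 0.0704, but 0.0041 with the replicate number as a block and 0.0490 without Dot1l-cKO replicate 1) and Trp73 0.52 (adjusted p 0.175). The cortical progenitor list was mixed: 7 of its 9 markers had a negative log2 fold change, and the median was -0.29. Of the 9, 2 rose, Vim by 0.53 and Fabp7 by 0.62 (adjusted p 0.0045 and 0.012), and 1 fell, Pax6 by 0.36 (adjusted p 0.029), while Nes had -0.16 (adjusted p 0.661). Sox2 had -0.38 (adjusted p 0.0639, and 0.0091 with the replicate block). The sums of this list were 2126 to 2696 and 2701 to 3091 CPM, and Vim and Fabp7, at means of 919 and 429 CPM in the controls, were among its 3 most abundant genes. For 6 lists no marker was called and the sums overlapped: intermediate progenitors (0 of 5 called), projection neurons (0 of 9), hem and choroid plexus (0 of 8), erythroid cells (0 of 8), endothelial cells and pericytes (0 of 8) and meninges (0 of 6). With the replicate block 3 projection neuron markers were called higher and 1 lower. The sums of the striatal list also overlapped, and 1 of its 12 genes was called, Ppp1r1b, higher. Of the 12, 9 had a negative log2 fold change and 3 a positive one, with a median of -0.41. Isl1, on this list, was uneven between samples, at 0.614 to 19.6 CPM in the controls and 0.0483 to 10.4 CPM in Dot1l-cKO (edgeR adjusted p 0.492). It was lowest in control replicate 3 and Dot1l-cKO replicate 5. The part of any of these lists in the differences of Dgkb and Dgka was not tested.

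The genes whose profile over the 10 samples was most like that of Dgkg were Nxph1, Nxph2, Erbb4, Rpp25 and Elfn1. Likeness was measured as the root mean square difference between log2 CPM profiles, each centred on its own mean, over 13763 genes. It was 0.35 for Nxph1, 0.36 for Nxph2, 0.38 for Erbb4, 0.39 for Rpp25 and 0.41 for Elfn1, beside a median of 1.30. Nxph1 and Nxph2 encode neurexophilins, secreted ligands of neurexins, and Elfn1 a synaptic adhesion protein of interneurons. Nxph1 was at 9.37 to 22.9 CPM in the controls and 0.838 to 5.29 CPM in Dot1l-cKO, and Nxph2 at 3.25 to 5.13 and 0.242 to 0.935 CPM. All 5 genes were lowest in Dot1l-cKO replicate 5, the sample in which Dgkg was lowest. Of the 16 interneuron markers ranked, 7 were among the 20 nearest genes. The marker list was chosen with earlier results of these data known, and nothing is read from this count. The nearest genes share with Dgkg the samples and the depth of each. The genotype difference, on which Dgkg was chosen, is part of the profile. The other 7 kinases had differences from the Dgkg profile of 1.23 (Dgkd) to 1.603 (Dgkb). Dgkd and Dgki, at 1.23 and 1.27, were below the median and ranked 1908 and 4355 of the 13763 genes by likeness. The rest of the kinases were above the median.

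**Figure D4:**
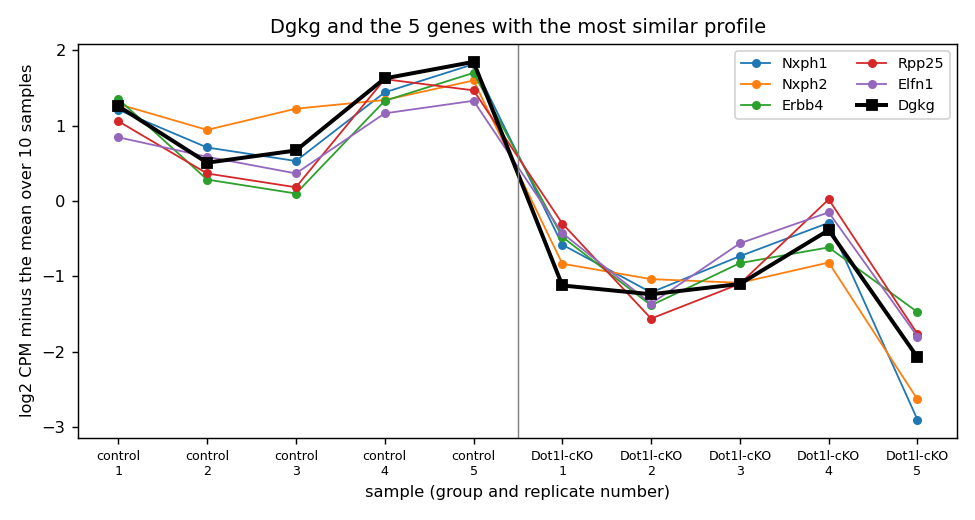
Log2 CPM of Dgkg (black squares) and the 5 genes of most similar profile, each minus its mean over the 10 samples; lines only join the points of a gene. All 6 genes are above their mean in every control, lower in replicates 2 and 3 than in 4 and 5 of the controls, and all but Rpp25 in Dot1l-cKO replicate 4 are below it in Dot1l-cKO.

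Along the chromosome, 10 genes tested lay within 500 kb of Dgkg. Of these, 1 was called, or 10%, beside 7.11% of all genes tested. Igf2bp2, an RNA-binding protein gene 305 kb away, fell by 0.54 ± 0.14 on the log2 scale (edgeR adjusted p 0.0345). The nearest tested neighbours did not pass. Etv5, an ETS factor gene 28.7 kb away, had -0.28 (adjusted p 0.216), and Tbccd1, on the other side at 156 kb, had -0.01 (adjusted p 0.936). Igf2bp2 did not pass without any 1 of control replicates 1, 2 and 4 or Dot1l-cKO replicates 1 and 3 (highest adjusted p 0.0920). With the replicate block 2 of the 10 genes were called, Igf2bp2 and Rfc4.

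Of the other genes of diacylglycerol signalling, 51 of 52 were tested and 6 called, or 11.8%, beside 7.11% of all genes. Of these 4 rose and 2 fell, and the median log2 fold change was 0.07. Upstream of the kinases, 2 of 12 phospholipase C genes rose, both of the delta class. Plcd1 was at 3.98, 3.96, 6.68, 4.98 and 7.58 CPM in the controls and at 11.4, 12.8, 11.7, 11.5 and 13.7 CPM in Dot1l-cKO, without overlap. It was 2.25-fold higher, a log2 fold change of 1.17 ± 0.18 (edgeR adjusted p 0.0034). Plcd4 went from 1.53 to 1.72 CPM in the controls to 2.94 to 3.51 CPM in Dot1l-cKO, again without overlap, with a log2 fold change of 0.97 ± 0.12 (adjusted p 0.00082).

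Downstream, 2 of 10 genes of protein kinase C and D were called, in opposite directions. Prkcq, protein kinase C theta, was at 2.26 to 3.68 CPM in the controls and 1.35 to 1.65 CPM in Dot1l-cKO and fell by 0.99 ± 0.17 (adjusted p 0.0057). Its log2 fold change was -0.59 with header number 57 and -1.20 in the remaining samples. Prkd1, a protein kinase D, rose by 0.48 ± 0.13 (adjusted p 0.0469) with overlapping groups, and it passed in only 2 of the 10 fits with a sample left out, those without control replicate 3 or Dot1l-cKO replicate 5 (adjusted p 0.0341 to 0.118 over the 10). Of 9 other effectors that bind diacylglycerol, 1 rose: Rasgrp4, a Ras activator known from mast cells, went from 0.523 to 0.984 CPM in the controls to 0.832 to 2.35 CPM in Dot1l-cKO, with overlap and a log2 fold change of 1.24 ± 0.29 (adjusted p 0.0249). Without any 1 of control replicates 1, 2 and 4 or Dot1l-cKO replicates 1, 4 and 5 it did not pass (highest adjusted p 0.0716).

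Of 5 phosphatidic acid phosphatase genes, whose enzymes turn phosphatidic acid back into diacylglycerol, 1 fell. Plpp3 was at 112, 108, 115, 111 and 96.1 CPM in the controls and at 78.4, 60.2, 66.6, 79.6 and 86.7 CPM in Dot1l-cKO, without overlap, and fell by 0.54 ± 0.10 on the log2 scale (adjusted p 0.0078). No gene was called among the other kinases that act on diacylglycerol, the phospholipases D, the other users of diacylglycerol or phosphatidic acid, or the inositol trisphosphate receptors. The most abundant of these had log2 fold changes of 0.02 for Agk and 0.01 for Dgkq, -0.11 for Cds2 and -0.02 for Cdipt, 0.51 for Pld2 and 0.02 for Pld1, and -0.04 for Itpr1 and 0.30 for Itpr2 (adjusted p from 0.165 to 0.983). Pld2 passed without control replicate 3 (log2 fold change 0.69, adjusted p 0.0271). With the replicate block 9 pathway genes were called, the additional ones being Plcb3, Prkd3 and Plpp2 (adjusted p 0.0439, 0.0290 and 0.0433, beside 0.0506, 0.0535 and 0.0948 without it). These 3 were chosen after their values were seen.

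**Figure D5:**
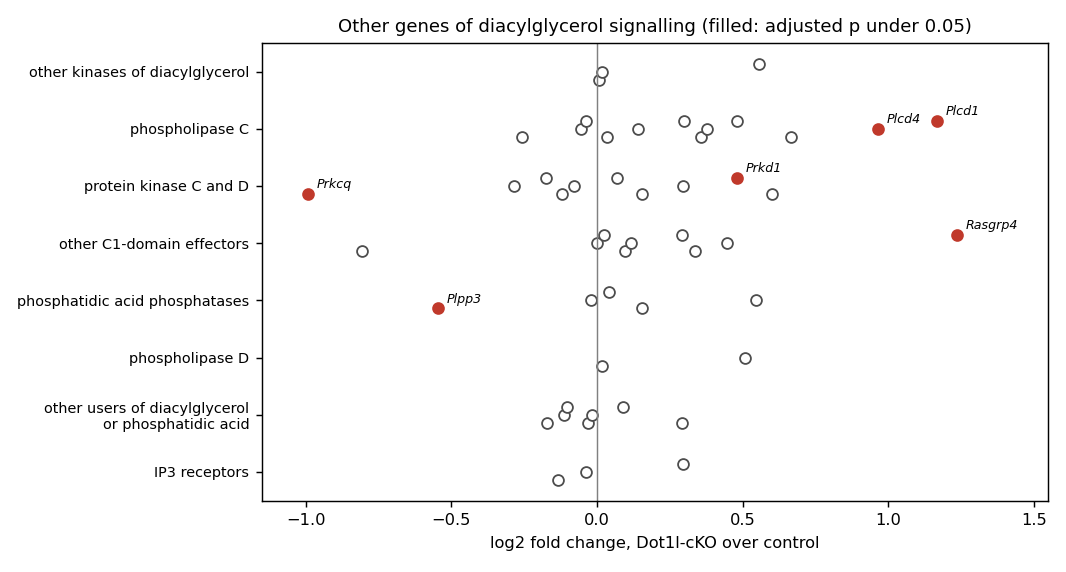
Log2 fold change, Dot1l-cKO over control, of the 51 tested genes of diacylglycerol signalling outside the 8 kinases, 1 point a gene, in rows by role; the small vertical offsets within a row have no meaning. Filled red points passed an edgeR adjusted p under 0.05, and they are Plcd1, Plcd4, Prkd1 and Rasgrp4 on the right and Prkcq and Plpp3 on the left.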

How the data were processed

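Total RNA-seq of E14.5 dorsal telencephalon was analysed for 5 control and 5 Dot1l-cKO samples, grouped by their titles and genotypes. Per the labels and the study's methods, the authors made stranded, ribosomal-RNA-depleted libraries, trimmed the paired-end reads with Trim Galore 0.2.8, mapped them to mm10 with TopHat2 2.0.9 and assigned them to Ensembl genes by strand with HTSeq 0.6.0. The deposited counts are whole numbers per gene and sample, not normalised. The deposited normalised values, a signal scale, are these counts divided by the authors' DESeq2 1.6.1 size factors, and recomputed size factors gave the same values.

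Of 43629 identifiers, 42462 matched a symbol in GENCODE M21 on the same build. The rest held 0.268% of the counts. Counting by strand keeps antisense genes apart. Genes were tested with edgeR 4.0.16 in R 4.3.3 by the quasi-likelihood test, with filterByExpr, TMM normalisation, no covariate and Benjamini-Hochberg adjustment over 17039 genes, and called at an adjusted p under 0.05. The lowest chi-square per degree of freedom between replicates was 30.8, so no library was counted more than once. CPM use TMM library sizes, and TPM the exon length of the gene. The 95% intervals of the kinases use the standard errors of this fit, which take in variation between replicates as well as counting error. Their multiplier is that of a normal distribution. It takes no account of the small number of samples, so the intervals are somewhat too narrow. The labels name the samples biological replicates. The fit was tested on simulated data.

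The members and all gene lists were chosen with earlier results of these data known. The genes named are the 8 kinases, Dot1l, the called pathway genes or, in lists with none, the most abundant, the called and nearest genes around Dgkg, the 5 genes of most similar profile (mean log2 CPM 0 or more), and the most abundant genes of marker lists whose sums did not overlap. Tbr1, Eomes, Nkx2-1, Lhx8, Pax6, Sox2, Aif1, Rfc4, Ppp1r1b and Isl1 were named after their values were seen. Another gene of the rule is not reported here. The 11 marker lists cover cortical progenitors and neurons and other cell types of the dissection.

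The labels give both groups the same replicate numbers but do not say what a number marks. The header numbers, read in replicate order, were 51, 57, 57, 90 and 154 in both groups, so they match across the groups too. Deviations of samples with the same replicate number from their group means correlated by 0.131 to 0.597 in the 5 pairs. The replicate numbers were therefore taken to pair the samples, from the data and not from a stated design. The replicate block uses this pairing, and the main fit does not. Control replicates 2, 3 and 5 correlated best with a Dot1l-cKO sample of another replicate number. Alternatives were DESeq2 1.42.0, DESeq2 size factors in edgeR, no low-count filter, a filter of 10 counts in each sample, the replicate block, the header number as a block, separate fits of the samples with header number 57 and of the rest, limma 3.58.1 on log2 of the normalised counts plus 1, and each sample left out in turn.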

Additional observations from a re-analysis of the deposited data

Results flagged for a closer look

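Each gene of the naming rule was examined in each genotype for a sample far from the other 4, by the gap to its nearest neighbour over the range of the group. Of 86 groups from 43 genes, 5 held such a sample, and chance alone flags about 4.3. None was in a diacylglycerol kinase of the family examined. Of the related kinase Agk, control replicate 5 stood low at 4.83 log2 CPM (nearest 4.92) and Dot1l-cKO replicate 2 high at 5.16 (nearest 4.91). Nxph2, a gene of similar profile to Dgkg, stood low in Dot1l-cKO replicate 5 at -1.86 log2 CPM, on 15 counts (nearest -0.31). Trp73 stood high in control replicate 3 at 4.57 log2 CPM (nearest 4.08). Dot1l stood low in Dot1l-cKO replicate 2 at 4.33 log2 CPM, on 1158 counts (nearest 5.31).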

How the results depend on the processing

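Dgkg, Dgkb, Dgka, Dgkd, Dgkh and Dgkz kept the direction of their difference in all 19 alternatives. Dgkg was chosen on this contrast, so this is no sign of stability. None of the 8 kinases was called within header number 57 (2 against 2 samples), so the count there was 0. With each sample left out in turn Dgkg had a log2 fold change of -2.66 to -2.21. DESeq2 called 4 of the 8 kinases, adding Dgka and Dgkd, and edgeR without Dot1l-cKO replicate 2 called 3, adding Dgka. Dgke had -0.081 within the other samples, and Dgki had 0.077 within header number 57 and -0.13 to 0.083 with a sample left out.

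Over all genes, 1212 calls (966 higher, 246 lower) became 2001 with DESeq2 (658 lower), 1604 with the replicate block (495 lower), 1818 with the header number block (597 lower), 1 within header number 57 (1 higher, 0 lower) and 745 within the other samples (590 and 155). Within header number 57, 2434 genes had an unadjusted p under 0.05. Leaving out a sample gave 750 to 1357 calls, 624 to 1076 higher and 126 to 343 lower. The total moved by over 1.5 times without control replicate 1 (750) or 4 (779), and the lower count also without control replicate 2 (134) and Dot1l-cKO replicates 1 (149), 3 (157) and 4 (144). Of the pathway genes DESeq2 called 10 and header number 57 alone 0, with 4 to 8 when a sample was left out. Within 500 kb of Dgkg the replicate block gave 2 calls, the header number block 3, and header number 57 alone 0. With a sample left out that count was 0 to 1. The replicate block changed the calls of Reln, Sox2, Aif1, Plcb3, Prkd3, Plpp2 and Rfc4, and of no other gene named.

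Of the other genes named by the rule, those whose direction turned were near 0 and not called. The genes named after their values were seen were not followed through all alternatives. Among them Lhx8, at means under 1 CPM, had a log2 fold change of -2.01 over all samples but 0.18 within the other samples. Within header number 57, Tbr1 had -0.073 beside 0.20 over all samples, and Eomes -0.12 beside 0.030. None of these 3 was called. Agk had -0.0094 with DESeq2, -0.0063 with its size factors, -0.044 within the other samples, -0.014 with limma and -0.047 to 0.040 with a sample left out. Dgkq had -0.020, -0.017, -0.079 and -0.012 in these alternatives, -0.0053 without the low-count filter and -0.052 to 0.10 with a sample left out. Pld1 had -0.0090 with DESeq2, -0.0043 with its size factors, -0.23 within header number 57, -0.018 with limma and -0.040 to 0.095 with a sample left out. Itpr1 had 0.012 within the other samples and Tbccd1 0.020 within header number 57. With a sample left out they had -0.16 to 0.038 and -0.031 to 0.0057, and Cdipt -0.043 to 0.0048. Dot1l had -0.37 within header number 57, -0.0058 with limma and -0.046 to 0.25 with a sample left out. The cause was not tested.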
